A study of Sus scrofa with 13 samples.

Results

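The tissue mixture and the muscle mixture were 2 pig (Sus scrofa) total RNA libraries, each prepared from a pool in which RNA samples were combined in equal amounts. The tissue mixture held RNA of multiple tissues, breeds and time points. The muscle mixture held RNA of the longissimus dorsi, the long muscle of the back, also of multiple breeds and time points. The tissues, breeds, ages, sexes and numbers of animals that entered each pool were not given in the sources used here, so that tissue, breed and age cannot be told apart in any difference between the pools. The other 11 libraries of the series came from Guizhou mini-pigs. At postnatal day 240 they covered adipose tissue, ovary, testis, kidney, lung, spleen, liver and heart, and longissimus dorsi was taken at birth (day 0) and again at day 30 and day 240. The 9 day 240 libraries were used here to name the organ in which a feature was highest. All 13 libraries were made from RNA freed of ribosomal RNA and kept strand information.

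Of 32420 features listed for each library, 14497 (44.7%) reached an RPKM of at least 1 in at least 1 mixture and were compared. RPKM is the number of reads of a feature per unit of its length and of the library's total. The features compared comprised 13674 of 21607 Ensembl genes and 823 of 10813 lncRNAs, long noncoding RNAs assembled by the study and named by TCONS identifiers. The difference was taken as log2(RPKM + 0.1) in the tissue mixture minus that in the muscle mixture, and a feature was called higher when it differed by at least 2-fold. Just inside the limit lay ENSSSCG00000021252 (1.0003 RPKM in the tissue mixture) and TCONS_00751595 (1.001 RPKM in the muscle mixture), and just outside it STYK1 (0.9997) and TCONS_00637435 (0.998). With 1 library a mixture there were no replicates and no test, and the intervals given are exact binomial (Clopper-Pearson) 95% intervals of the RPKM ratio, which cover counting error only.

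Skeletal muscle fibres are built of sarcomeres, in which thick filaments of myosin pull on thin filaments of actin, tropomyosin and troponin after calcium is released at the triad. Fast, slow, embryonic and cardiac fibres use different members of the same protein families. Liver, kidney, lung, gut, brain and blood cells each devote much of their RNA to a few specialised proteins, such as the plasma proteins of the liver. Such genes serve as markers of a tissue, but some are also expressed in other organs. Their RNA alone does not show that a given tissue entered a pool. lncRNAs are often present in few tissues and at low levels.

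The totals behind the RPKM values, recovered from the values themselves, were 108337358 reads for the tissue mixture and 63015726 for the muscle mixture, against 21685316 to 38581416 for the single tissues. Reads counted to the listed features came to 32507136 (30.0%) and 18656109 (29.6%), and lncRNAs took 1.44% and 1.41% of these. The summed RPKM was 166431 in the tissue mixture against 152319 in the muscle mixture. The median Ensembl gene compared had 903.5 reads in the tissue mixture against 296 in the muscle mixture, and the median lncRNA 145 and 62, so that the lncRNA ratios were the less precise.

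More features were higher in the tissue mixture than in the muscle mixture. Of the Ensembl genes, 5660 (41.4%) were higher in the tissue mixture, 977 (7.14%) in the muscle mixture and 7037 (51.5%) differed by less than 2-fold. Of the lncRNAs, 301 (36.6%) were higher in the tissue mixture against 137 (16.6%) in the muscle mixture. Over all 14497 features these shares were 41.1% and 7.68%. Large differences lay mostly towards the tissue mixture: 1470 Ensembl genes were at least 8-fold higher there, and 12 in the muscle mixture. For lncRNAs these counts were 77 and 11. The near bound of the counting interval passed 2-fold for 4996 and 780 Ensembl genes and for 215 and 94 lncRNAs. An RPKM of at least 1 was reached in the tissue mixture alone by 3567 Ensembl genes and 314 lncRNAs, and in the muscle mixture alone by 274 and 136. No feature compared was without reads in the tissue mixture, whereas 380 Ensembl genes and 32 lncRNAs had 0 reads in the muscle mixture. Across the features, Spearman's rho between the mixtures was 0.66 for the Ensembl genes (n = 13674) and 0.25 for the lncRNAs (n = 823), which are values across genes and not across replicates.

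This excess changed with the scale. The median difference was 0.70 on the log2 scale for Ensembl genes and 0.52 for lncRNAs. When each library was scaled to the same median ratio, 12580 Ensembl genes and 647 lncRNAs reached 1 RPKM in either mixture and were compared. Of these Ensembl genes, 2982 were higher in the tissue mixture against 2721 in the muscle mixture. The share of higher-in-tissue calls among all calls then went from 85.3% to 52.3% for Ensembl genes and from 68.7% to 33.6% for lncRNAs (121 against 239 features). With each library scaled to the same summed RPKM (-0.13 in the log2 ratio of the mixtures), the shares were 79.8% and 60.1%. In the liver, kidney, lung and gut lists every member compared reached 1 RPKM in the tissue mixture alone, so that this limit itself favoured a higher value there and the counts are a description. The gene lists are given with their medians, to be read against 0.70, and with their counts under the same median ratio where these differ. For lists and families, the tissue mixture alone was scaled, to the same median ratio over features above 0 in both. That shifted the log2 ratio by -0.67, and the features compared stayed the same.

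**Figure D1:**
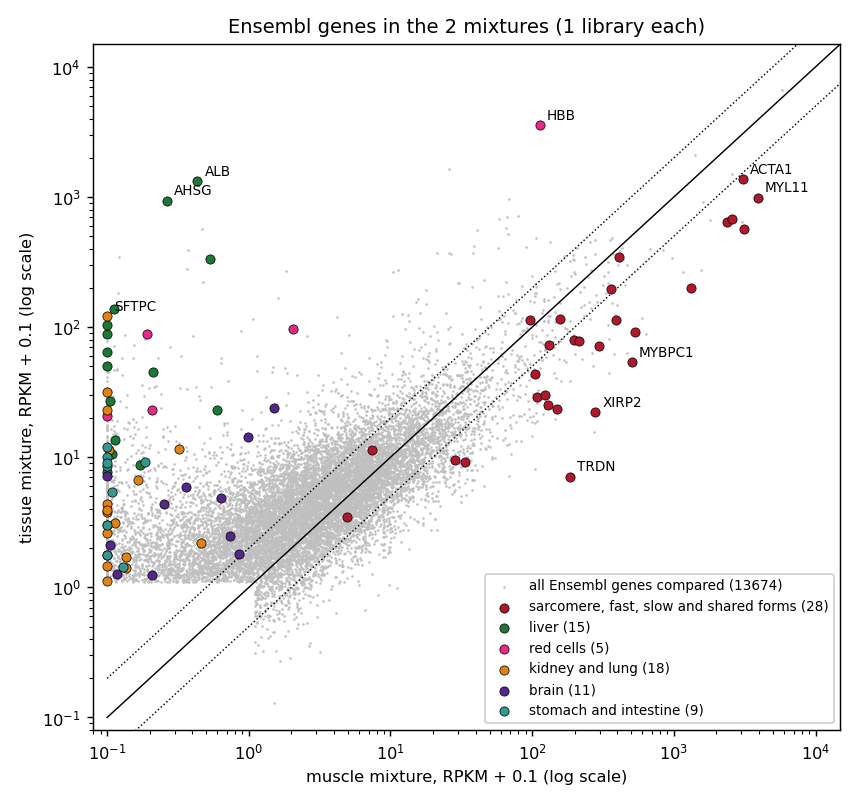
RPKM + 0.1 of 13674 Ensembl genes in the muscle mixture (x axis, log scale) and in the tissue mixture (y axis, log scale), with 1 point a gene and members of named gene lists in colour (number compared in parentheses). The solid line marks equal values and the dotted lines 2-fold. Liver, kidney, lung and intestinal genes stood to the left, near 0 in the muscle mixture, and most sarcomere genes lay below the line, at most 26.4-fold higher in the muscle mixture (TRDN).

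The muscle mixture carried the muscle genes, and the tissue mixture carried them at lower but high levels. Of 7 fast-fibre genes compared, 6 were higher in the muscle mixture, with a median difference of -1.89. MYL11, the regulatory light chain of fast myosin, had an RPKM of 3905 in the muscle mixture and 988 in the tissue mixture, a ratio of 3.95 (3.92 to 3.98). MYL1, a fast essential light chain, had 3134 and 569, and TNNC2, the calcium sensor of fast troponin, had 2369 and 638. ATP2A1, the calcium pump of fast fibres, had 215 and 77.8. The seventh gene, the calcium buffer PVALB, differed by less than 2-fold, with an RPKM of 4.82 in the muscle mixture and 3.34 in the tissue mixture. It was the least abundant member in both, and all 7 passed 2-fold under the same median ratio.

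Among 15 sarcomere and triad genes used by all striated fibres, 13 were higher in the muscle mixture (median -1.88), and all 15 were under the same median ratio. ACTA1, skeletal alpha-actin, had 3069 in the muscle mixture and 1365 in the tissue mixture. TPM1 and TPM2, the tropomyosins, had muscle-to-tissue ratios of 3.81 (3.78 to 3.84) and 6.61 (6.52 to 6.70). NEB, the ruler of the thin filament, had 534 and 91.5. TRDN, which holds the calcium store of the triad, showed the largest difference of any named gene in this direction, 184 RPKM in the muscle mixture and 6.99 in the tissue mixture, a ratio of 26.4 (24.0 to 29.0). XIRP2, an actin-binding protein of striated muscle, had 280 and 22.2, a ratio of 12.6 (12.5 to 12.8). NEXN, an actin-binding protein outside the list, had 104 and 8.002. TCAP, a cap of the titin filament, and DES, desmin, were the pair within 2-fold, with 132 and 361 in the muscle mixture and 72.8 and 198 in the tissue mixture.

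By list median, the slow-fibre genes differed less between the mixtures than the fast-fibre genes. Of 6 compared, 2 were higher in the muscle mixture, with a median of -0.34, against 0.70 over all Ensembl genes compared. Under the same median ratio, 3 were higher there, with a median of -1.01. TNNC1, the troponin C shared by slow fibres and heart, had 407 in the muscle mixture and 344 in the tissue mixture, and TNNI1, the slow inhibitory troponin, had 157 and 116. MYL3, a light chain also shared with heart, was the more abundant in the tissue mixture, with 113 against 97.0. Those 3 had heart or muscle as the highest organ at day 240. The 2 higher in the muscle mixture were MYBPC1, slow myosin-binding protein C, with 505 there and 53.9 in the tissue mixture, and TNNT1, slow troponin T, with 297 and 71.9. Of the troponin I family, TNNI1 was the only member with a symbol here, and TNNI2 and TNNI3 were not analysed.

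The myosin heavy chains, chosen as a family after their values were seen, differed in direction among themselves. Of 9 compared, 4 were higher in the muscle mixture: MYH8, MYH3, MYH13 and MYH15. MYH8, a perinatal form, had 1544 RPKM in the muscle mixture and 276 in the tissue mixture. MYH3, the embryonic form, had 380 and 62.4, and its muscle mixture value lay above the 96.3 of its highest single tissue. That was muscle at day 240, against 37.3 at day 0. MYH6, a cardiac form, had 431 and 409, although the adult heart had 4521 and adult muscle 768. The forms of smooth muscle and other cells went the other way: MYH11 had 31.9 in the tissue mixture against 2.48 in the muscle mixture, and MYH9 had 57.8 and 16.8. MYH8 and the unnamed ENSSSCG00000018003, which had 594 and 116, were among the 10 features with the most reads in the muscle mixture. Near-identical myosin genes can share reads, so their separate levels are uncertain.

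Genes of embryonic muscle and of myogenic control were compared for 12 of 13 measured members, of which 5 were higher in the muscle mixture (median -0.87, and 11 under the same median ratio). ACTC1, cardiac alpha-actin, which developing muscle also uses, had 344 in the muscle mixture and 264 in the tissue mixture. MYL4, an embryonic and atrial light chain, had 92.2 and 48.4, against at most 2.42 in any single tissue. MSTN, which restrains muscle growth, had 28.5 and 5.54. MYOD1, a transcription factor that commits cells to muscle, had 6.98 and 4.14, against 0.87 to 1.01 in the 3 single muscle libraries. Of the 12 compared, 8 were above all 3 single muscle libraries in both mixtures, a share near that of all Ensembl genes compared (69.7%).

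Of 10 genes of muscle energy supply, 6 were higher in the muscle mixture (median -1.23; 9 under the same median ratio). ENO3, muscle enolase, had 1163 there and 264 in the tissue mixture. LDHA, which turns pyruvate into lactate, had 470 and 62.9, a ratio of 7.47 (7.32 to 7.62). PYGM, muscle glycogen phosphorylase, had 381 and 124. The mitochondrially encoded genes differed less: of 13, 3 were higher in the muscle mixture (median -0.87; 12 under the same median ratio). COX1, a core subunit of cytochrome c oxidase and the feature with the most reads in both mixtures, had 6650 in the tissue mixture against 5789 in the muscle mixture, 3.42% and 3.02% of the counted reads.

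**Figure D2:**
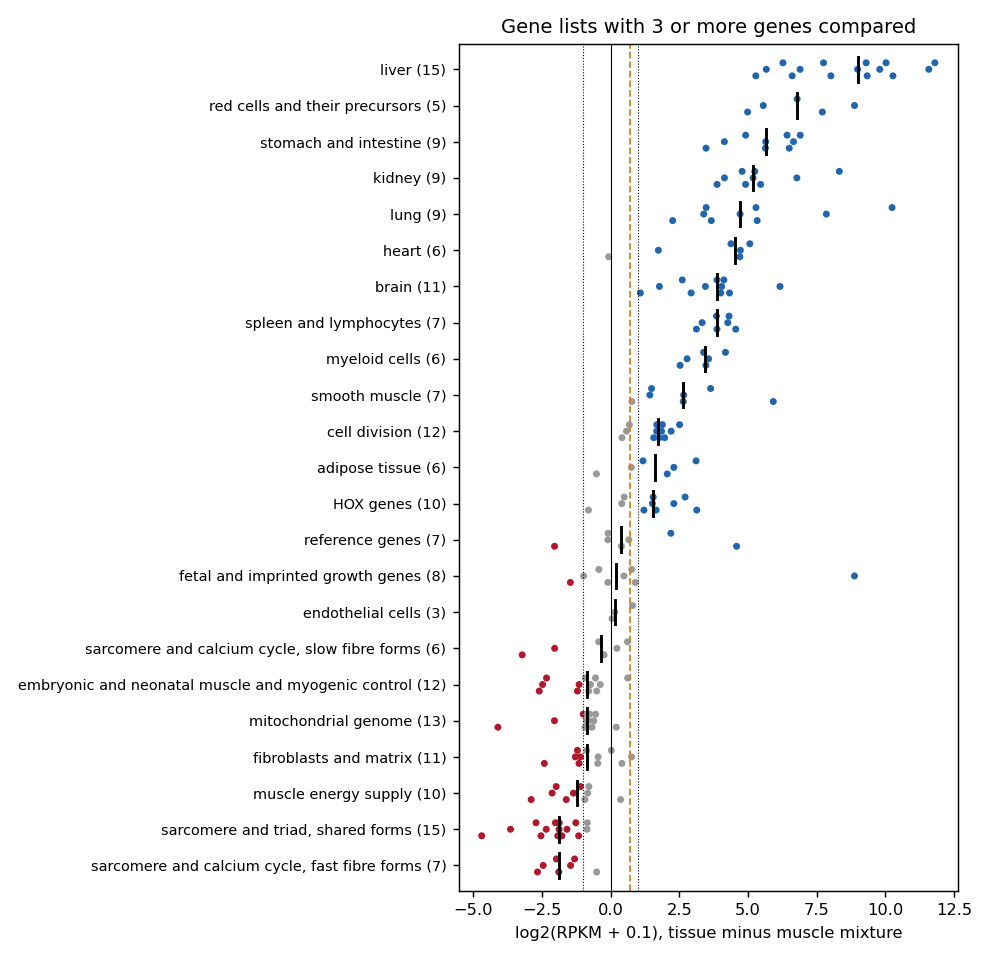
Difference in log2(RPKM + 0.1), tissue mixture minus muscle mixture, of each gene compared (1 point a gene) in the lists with 3 or more genes compared (number in parentheses). Blue points were 2-fold or more higher in the tissue mixture and red points in the muscle mixture; black ticks are list medians, dotted lines 2-fold and the dashed line the median of all Ensembl genes, 0.70. List medians ran from -1.89 (fast fibre forms) to 8.98 (liver).

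Liver genes showed the largest differences of any list. All 15 compared were higher in the tissue mixture, with a median of 8.98, and the highest in the muscle mixture was CPS1, an enzyme of the urea cycle, at 0.492 RPKM. ALB, albumin, the main plasma protein, had 1322 RPKM in the tissue mixture from 294423 reads, against 0.332 in the muscle mixture from 43 reads. AHSG, a liver glycoprotein abundant in fetal plasma, had 940.0 and 0.164, a ratio of 5742 (3481 to 10259). TF, the iron carrier transferrin, had 336 and 0.434. The ratio for AMBP, the precursor of alpha-1-microglobulin, was 11533 (2070 to 455537), as the muscle mixture held 1 read of it. TTR, APOC3, HPX and PLG had 0 reads in the muscle mixture. By the floor of 3 reads a library, TTR, a thyroid hormone carrier, was at least 1333-fold higher in the tissue mixture, APOC3, an apolipoprotein, at least 1034-fold, HPX, which binds haem, at least 2943-fold, and PLG, plasminogen, at least 4034-fold. GC, the vitamin D binding protein, had 86.6 and 0.033.

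Plasma protein families, chosen after their values were seen, were higher in the tissue mixture nearly throughout. All 10 complement components compared were, with a median of 6.28, and all 8 coagulation factors, with a median of 5.06 (7 under the same median ratio). C3, the hub of complement, had 93.3 RPKM in the tissue mixture against 0.777 in the muscle mixture. F10, the factor that activates prothrombin, had 22.7 and 0. Of 13 serpins, the family of protease inhibitors, 12 were higher in the tissue mixture (median 4.52, and 10 under the same median ratio). SERPINC1, antithrombin, had 57.9 and 0.026. Of 13 cytochrome P450 enzymes, 11 were higher (median 3.45, and 9 under the same median ratio), with CYP2E1 at 50.6 and 0.

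Levels in the tissue mixture did not follow those of the adult organs evenly. ALB in the tissue mixture was below the 5495 of adult liver and TTR (104) below 350.1, but AHSG was above the 345 of adult liver. AFP, alpha-fetoprotein, which the fetal liver secretes and the adult liver does not, had 73.0 in the tissue mixture, 0.056 in the muscle mixture and at most 0.097 in any single tissue. FABP6, a bile acid binding protein of the ileum, had 109 in the tissue mixture from 2974 reads, 0 in the muscle mixture and at most 0.129 in a single tissue, where the highest was liver. Of the 5660 Ensembl genes higher in the tissue mixture, 1270 (22.4%) were at least 2-fold above the highest of the 9 day 240 organs, and 86 (28.6%) of the 301 lncRNAs were. Over all features compared these shares were 12.04% and 17.3%; as the sets were chosen for high values in the tissue mixture, their larger shares are a description only.

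All 5 genes of red cells and their precursors were higher in the tissue mixture (median 6.78). HBB, beta-globin, had 3577 RPKM in the tissue mixture against 113 in the muscle mixture, a ratio of 31.6 (30.8 to 32.4), and 52.7 in spleen, its highest single tissue. HBM, a further globin gene, had 224 and 0.375, against at most 3.05 in a single tissue. The genes that mark immature red cells were present as well. ALAS2, the first enzyme of haem synthesis in red cells, had 96.4 and 1.96, and SLC4A1, the anion exchanger of the red cell membrane, had 89.2 and 0.090. KLF1, a transcription factor of red cell precursors, had 20.7 and 0, against at most 0.0845 in an adult organ. Of the 5, only HBB was above 2 RPKM in the muscle mixture.

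Kidney and lung genes were present in the tissue mixture and near 0 in the muscle mixture. All 9 kidney genes compared were higher (median 5.18), with none above 0.23 in the muscle mixture. UMOD, the urinary protein of the thick ascending limb, had 31.9 RPKM and 0 reads, against 165 in adult kidney. CUBN, a receptor that recovers protein from the filtrate, had 11.6 and 0.221, and SLC12A1, a salt transporter, had 11.2 and 0.0034. All 9 lung genes were higher too (median 4.71). SFTPC, a surfactant protein, had 121 and 0, at least 2672-fold, against 831 in adult lung, and SFTPB, another, had 23.0 and 0. SCGB1A1, secreted by airway club cells, was low in the tissue mixture at 1.01, against 199.9 in adult lung.

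The lymphocyte and myeloid lists had smaller medians than the liver, kidney and lung lists. All 7 lymphocyte genes compared of 13 measured were higher in the tissue mixture (median 3.87), led by PTPRC, the common leukocyte antigen, with 10.2 and 1.09 RPKM. CD3D, a subunit of the T cell receptor complex, had 2.41 and 0.031. All 6 myeloid genes compared were higher as well (median 3.42), and LYZ, lysozyme, had 7.72 and 0.333. PTPRC was 1.09 in the muscle mixture and 0.69 to 1.37 in the 3 single muscle libraries. The thymus list, with recombination and selection genes, had no member at 1 RPKM in either mixture and a highest value of 0.076 in the tissue mixture.

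Brain and gut genes were found although neither organ was among the single tissues. All 11 brain genes compared of 14 measured were higher in the tissue mixture, with a median of 3.87 (10 under the same median ratio). STMN2, a microtubule regulator of neurons, had 23.9 and 1.40, and 10.2 in spleen. SNAP25, which drives synaptic vesicle fusion, had 7.05 and 0, against at most 0.159 in an adult organ, and GFAP, the filament of astrocytes, had 5.85 and 0.262, against at most 0.428. All 9 stomach and intestine genes compared of 11 measured were higher (median 5.64). KRT20, a keratin of the gut lining, had 11.8 and 0, against at most 0.025 in an adult organ. LGALS4, an intestinal lectin, had 9.03 and 0.084, and ATP4B, a subunit of the gastric proton pump, had 8.94 and 0. VIL1, villin of the brush border, had 9.96 and 0, with 15.1 in adult kidney. The whole gut list summed to 60.4 RPKM in the tissue mixture against 0.12 in the muscle mixture.

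The listed testis and ovary genes were low in both mixtures. None of 23 testis genes measured reached 1 RPKM in either mixture. The highest was AKAP3, a scaffold of the sperm tail, with 0.792 RPKM in the tissue mixture against 0.507 in the muscle mixture, against 139.8 in adult testis. TNP2, which packs sperm DNA, had 0.725 and 0.041, against 1000.5 in testis. PRM1, the first protamine, had 0 reads in both mixtures, against 3203 in testis. Of 11 ovary genes measured, GDF9, an oocyte growth factor, was the only one compared, with 1.598 in the tissue mixture against 2.679 in the muscle mixture. INHA, an inhibin subunit, had 0.842 and 0.311, against 9.70 in adult ovary. The pancreas and endocrine gland lists had 2 and 1 members compared. GCG, proglucagon, had 1.21 and 0.166 RPKM, while CPA1, a digestive enzyme, had 0.964 and 1.82, and PNMT, which makes adrenaline, had 1.33 and 2.09. GDF9, CPA1 and PNMT were past 2-fold on the muscle side under the same median ratio. In bulk RNA, fewer cells of a type and less RNA per cell cannot be told apart.

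Of 6 heart genes compared, 5 were higher in the tissue mixture (median 4.54), and MYH6 differed by less than 2-fold. TNNT2, cardiac troponin T, which embryonic skeletal muscle also uses, had 142 and 42.5 RPKM, against 4075 in adult heart and 4.03 to 6.07 in the single muscle libraries. RYR2, the calcium release channel of the heart, had 18.2 and 0.602, a ratio of 30.1 (27.7 to 32.9). TBX5, a transcription factor of the heart and forelimb, had 3.24 and 0; its highest organ at day 240 was lung (6.63), ahead of heart (5.19), and that of GATA4 was ovary. Smooth muscle genes were higher in the tissue mixture in 6 of 7 (median 2.64; 4 under the same median ratio). TAGLN, a smooth muscle actin-binding protein, had 98.3 and 15.7, and ACTG2, the actin of visceral smooth muscle, had 27.4 and 0.355, a ratio of 77.2 (53.3 to 116).

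Among 11 fibroblast and matrix genes, 5 were higher in the muscle mixture (median -0.88; 8 under the same median ratio) and none in the tissue mixture, while 6 differed by less than 2-fold. COL3A1, a fibrillar collagen, had 841 RPKM in the muscle mixture and 391 in the tissue mixture, against 9.22 to 58.1 in the single muscle libraries, and was the fifth feature by reads in the muscle mixture. POSTN, a matrix protein of growing connective tissue, had 269 and 50.3, against 0.053 to 5.62. The collagens as a family, chosen after the values were seen, differed in direction: 10 of 27 were higher in the muscle mixture and 7 in the tissue mixture. Under the same median ratio these counts were 13 and 5. COL11A1, a minor fibrillar collagen of cartilage and embryonic tissue, had 45.6 in the muscle mixture and 5.89 in the tissue mixture, against at most 6.89 in a single tissue. COL4A3, a chain of the basement membrane of the glomerulus and alveolus, went the other way, with 0.27 and 2.37. Of 2 cartilage genes compared, both were higher in the muscle mixture, COL2A1 with 3.94 and 1.69 and COMP with 2.02 and 0.792, and TP63, the only skin gene compared, had 1.66 and 0.498. TNMD, a protein of tendon cells, had 37.8 and 5.47. The 3 endothelial genes compared differed by less than 2-fold, with PECAM1, an adhesion molecule of vessels, at 24.5 in the tissue mixture against 22.1 in the muscle mixture.

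Cell division genes were higher in the tissue mixture in 9 of 12 (median 1.72; 8 under the same median ratio). In both mixtures 11 of the 12 were above the 3 single muscle libraries, as were 69.7% of all Ensembl genes compared. TOP2A, which untangles replicated DNA, was nearly level at 22.5 and 16.9, against 0.157 to 1.63 in the single muscle libraries, and CDK1, the kinase of mitotic entry, had 15.1 and 5.04, against 0 to 0.226. Of 10 HOX genes compared, which pattern the body axis, 7 were higher in the tissue mixture (median 1.53), against 41.4% of all Ensembl genes. Under the same median ratio, 4 were higher there and 1 in the muscle mixture. HOXB3 had 2.92 and 0.245, whereas HOXD4 and HOXA5 differed by less than 2-fold. Of 8 fetal and imprinted growth genes, AFP was higher in the tissue mixture, SGCE, which had 12.9 in the muscle mixture and 4.57 in the tissue mixture, was higher in the muscle mixture, and 6 differed by less than 2-fold (3 were higher in the muscle mixture under the same median ratio). MEST, an imprinted gene, had 20.5 and 10.2.

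Of 6 adipose genes compared, 4 were higher in the tissue mixture (median 1.61), against 41.4% of all Ensembl genes. Under the same median ratio, 3 were higher there and 1 in the muscle mixture. FASN, fatty acid synthase, had 32.4 and 3.68 RPKM, and PLIN1, which coats fat droplets, was below 1 in both mixtures (0.526 and 0.362) against 82.1 in adult adipose tissue. Of 7 genes often used as references, 2 were higher in the tissue mixture against 1 in the muscle mixture, and the rest differed by less than 2-fold. ACTB, cytoplasmic beta-actin, had 412 and 90.5, and PGK1, a glycolytic enzyme, had 38.4 and 159. RPL4, a ribosomal protein, was level at 319 and 341.

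Other families, chosen after the values were seen, are given as a description. Of 14 claudins measured, which seal epithelia, 7 reached 1 RPKM, all of them in the tissue mixture alone, and CLDN4 had 7.13 and 0.0089. Of 29 keratins measured, 3 reached 1 RPKM, again in the tissue mixture alone, and KRT8, a keratin of simple epithelia, had 85.7 and 0.306. Of 177 solute carriers, 116 were higher in the tissue mixture against 3 in the muscle mixture (median 1.67; 89 and 14 under the same median ratio). Of 128 zinc finger genes named ZNF, 32 were higher in the tissue mixture against 7 in the muscle mixture (median 0.07; 10 and 39 under the same median ratio). For 21 integrins these counts were 9 and 3 (7 and 5 under the same median ratio), and the 9 of 21 were near the 41.4% of all Ensembl genes. In turn, 18 of 25 cytosolic ribosomal proteins and 18 of 19 proteasome subunits differed by less than 2-fold, with medians of -0.03 and -0.35. Under the same median ratio, 5 of the 25 and 10 of the 19 were higher in the muscle mixture. Ribosomal protein genes have many near-identical copies, so their values are uncertain.

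Among the genes with the largest differences on the muscle side, several were outside the sarcomere lists. ATP8, a short mitochondrial gene, had 271 RPKM in the muscle mixture and 15.6 in the tissue mixture, a ratio of 17.4 (15.5 to 19.5). The single tissues held 29.3 to 1132 RPKM of ATP8. ND6, the mitochondrial gene on the light strand, had 30.4 and 7.25, against 75.7 to 1302 in the single tissues, so that both mixtures lay below every single tissue. The labels name SMART or dUTP preparation without giving it for each library, and its part in these values was not tested. TCEAL9, a small protein related to an elongation factor, had 11.04 and 0.888, with 21.7 in adult ovary and 8.88 in muscle at day 0. LRRC39, a striated muscle protein, had 68.0 and 7.07, and BBS5, part of a complex that serves the cilium, had 346 and 44.4. Adult muscle was the highest organ for BBS5, at 73.1.

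The organ of highest day 240 RPKM differed between the features higher in each mixture. Among the 5660 Ensembl genes higher in the tissue mixture, ovary was highest for 1496, testis for 1132, kidney for 797, lung for 677, spleen for 657, liver for 541, heart for 198, adipose tissue for 100 and muscle for 22, and 40 had no reads in any of the 9. The ovary and testis libraries were also highest for 5324 and 3334 of all 13674 genes compared, and they had the largest summed RPKM of the single tissues. Read as a share of each organ's own genes, the order changed. Of genes highest in liver, 85.5% were higher in the tissue mixture, then 81.5% for spleen, 70.3% for kidney and 60.3% for lung, against 41.4% of all genes. The share was 33.95% for testis and 28.1% for ovary, below that of all genes. Of 456 genes highest in muscle, 22 (4.8%) were higher in the tissue mixture against 213 (46.7%) in the muscle mixture, against 7.14% of all genes.

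When each library was first scaled to the same median ratio, the organ counts changed: 855 of 2982 Ensembl genes higher in the tissue mixture were highest in liver, 644 in spleen, 423 in kidney, 327 in testis and 177 in ovary. The order of organs by count thus depended on the scale. By share within an organ, liver (41.4%), spleen (41.5%) and kidney (41.3%) stayed above testis (14.7%) and ovary (15.4%), with 23.7% over all 12580 genes compared on this scale. The lncRNAs had another order by count as deposited: 59 of the 301 higher in the tissue mixture were highest in lung, 57 in ovary, 43 in testis, 42 in kidney, 31 in heart, 28 in spleen, 25 in liver, 9 in adipose tissue and 2 in muscle. Within an organ, 62.5% of the 40 lncRNAs highest in liver were higher in the tissue mixture, 50.9% for spleen, 49.2% for heart, 48.8% for lung, 42.4% for kidney, 33.9% for testis and 25.8% for ovary, against 36.6% of all lncRNAs. Of the 55 lncRNAs highest in muscle, 44 (80.0%) were higher in the muscle mixture, against 16.6% of all lncRNAs.

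**Figure D3:**
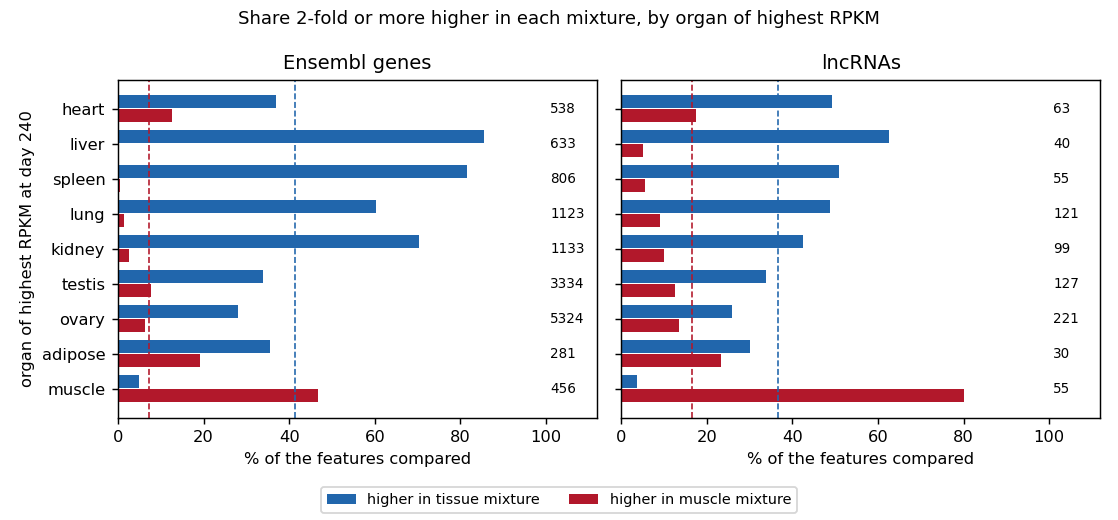
Percentage of the features compared (x axis) that were 2-fold or more higher in the tissue mixture (blue) or in the muscle mixture (red), by organ of highest RPKM at day 240 (y axis), for Ensembl genes (left) and lncRNAs (right), with the number compared at the right edge. Dashed lines mark the shares over all features. Liver genes had the highest blue bar (85.5%) and muscle the highest red bars (46.7% and 80.0%).

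Genes restricted to a single organ were followed in both pools. An Ensembl gene was called restricted when its highest day 240 RPKM was at least 1 and at least 8-fold above the next organ on log2(RPKM + 0.1), a rule that used neither mixture. Of 168 liver-restricted genes, 149 (88.7%) had at least 1 RPKM in the tissue mixture against 6 in the muscle mixture, with a median of 30.7% of the level in liver. Heart had 39 of 41 genes at a median of 36.8%, spleen 25 of 35 at 20.4%, kidney 107 of 136 at 18.5% and lung 30 of 71 at 10.2%. Of 1041 testis-restricted genes, 175 (16.8%) reached 1 RPKM in the tissue mixture, 104 did in the muscle mixture and 234 had 0 reads in the tissue mixture, and the median level was 0.50% of that in testis. Adipose tissue gave 11 of 23 genes at 3.6%, and ovary 94 of 158 at 9.7%, while 64 of the 158 reached 1 RPKM in the muscle mixture. Of all 21607 Ensembl genes listed, 9833 reached 1 RPKM in both mixtures, 3567 in the tissue mixture alone and 274 in the muscle mixture alone. In the tissue mixture the ovary share was near that of all Ensembl genes listed, and the lung, adipose and testis shares were below it.

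Muscle-restricted genes were present in both pools. Of 71, 69 reached 1 RPKM in the muscle mixture and 63 in the tissue mixture, at medians of 70.3% and 20.9% of the level in adult muscle. Of the 69 compared, 60 were higher in the muscle mixture and none in the tissue mixture. Heart-restricted genes were in part found in the muscle mixture as well, with 22 of 41 at 1 RPKM or more and a median of 5.4% of the heart level. Their share at 1 RPKM was not far above that of all Ensembl genes listed. These percentages set RPKM values of separate libraries side by side and are no estimate of the amount of an organ in a pool.

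**Figure D4:**
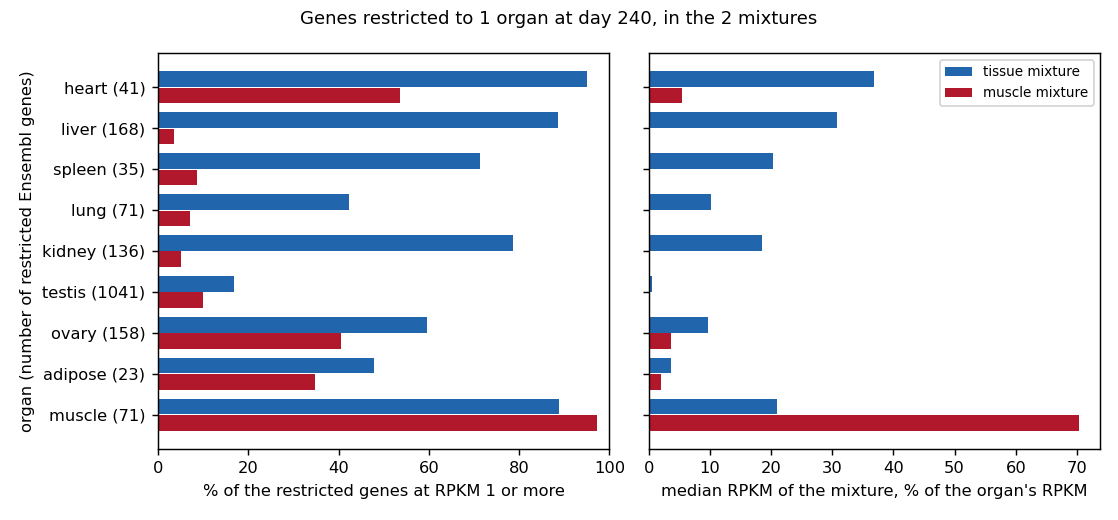
Ensembl genes restricted to 1 organ at day 240 (y axis, number in parentheses): percentage with an RPKM of at least 1 in the tissue mixture (blue) and the muscle mixture (red) (left), and the median RPKM in each mixture as a percentage of that in the organ (right). Testis-restricted genes had a median of 0.50% in the tissue mixture, and muscle-restricted genes 70.3% in the muscle mixture and 20.9% in the tissue mixture.

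Of the 25 lncRNAs with the largest difference towards the tissue mixture, 7 were highest in kidney, 5 in liver, 4 in spleen and 3 in heart, and the first 5 follow. TCONS_00369554, of 212 nt, had 36.3 RPKM in the tissue mixture from 834 reads and none in the muscle mixture, at least 162-fold higher. Among the single tissues it had 32.4 in kidney, 15.4 in lung, 0.86 in testis and 0.13 in spleen, and 0 reads elsewhere. TCONS_00795875 had 5.71 and 0, and was found in kidney alone (16.6). TCONS_00306934 had 4.05 and 0, with 6.38 in kidney and 3.31 in lung. The remaining pair was near 0 in most adult organs. TCONS_00151954, of 2123 nt, had 4.97 RPKM from 1143 reads, 1 read in the muscle mixture and at most 0.065 in a single tissue (spleen). TCONS_00821422 had 3.58 and 0, and at most 0.62 (lung).

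On the muscle side, 4 of the 5 lncRNAs with the largest differences were highest in adult muscle, against 6.68% of all lncRNAs compared. TCONS_00828878, of 311 nt, had 153 RPKM in the muscle mixture and 9.20 in the tissue mixture, a ratio of 16.6 (14.7 to 18.7). In single muscle it had 530.2 at day 0, 145 at day 30 and 310 at day 240, and at most 14.1 in another organ (heart). TCONS_00791383 had 11.05 and 0.623, against 7.08, 3.13 and 5.69 in muscle at day 0, day 30 and day 240. TCONS_00323213 had 17.1 and 1.10, against 87.7, 23.8 and 76.6. TCONS_00006659 had 6.38 from 109 reads and 0.409 from 12 reads, a ratio of 15.6 (8.59 to 31.2). It was found in the 3 muscle libraries (6.61, 0.91 and 3.50) and had 0 reads in the other 8 single tissues. All 4 were lower at day 30 than at day 0 and day 240.

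The fifth, TCONS_00512109, had 47.1 and 3.29 RPKM, against 278 to 6997 in the 11 single tissues. Both mixtures were thus below every single tissue for this transcript, as they were for ND6, and the part of library preparation was not tested. The most abundant lncRNA of both mixtures, named after its values were seen, was TCONS_00811385, with 771 in the muscle mixture and 264 in the tissue mixture and 77.1 in adult muscle, its highest organ. TCONS_00579228, likewise named afterwards, had 66.5 and 6.001, and was found in muscle alone among the single tissues (19.7, 2.78 and 6.40 at day 0, day 30 and day 240). TCONS_00535591, TCONS_00535597 and TCONS_00535619, also named afterwards, whose neighbouring identifiers may mark overlapping transcripts, had 1.003, 2.46 and 3.71 in the muscle mixture and 0.051, 0.139 and 0.453 in the tissue mixture.

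**Figure D5:**
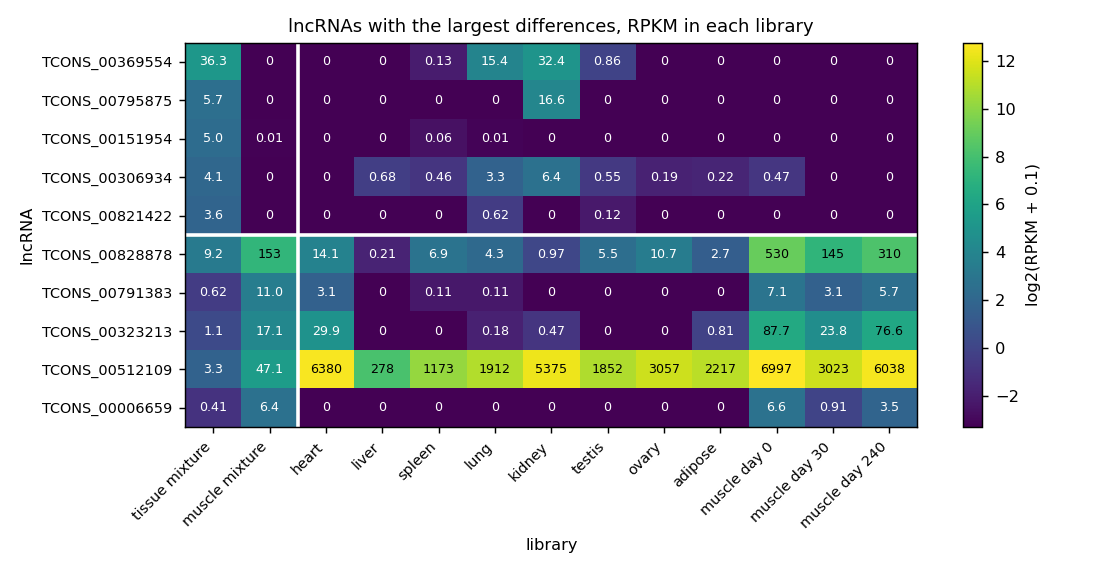
RPKM (numbers) and log2(RPKM + 0.1) (colour) of the 5 lncRNAs with the largest difference towards the tissue mixture (upper rows) and towards the muscle mixture (lower rows) in the 2 mixtures and the 11 single tissues (x axis, 1 library each). The upper lncRNAs were at most 0.0075 in the muscle mixture and 0.472 in the muscle stages, and TCONS_00512109 was far lower in both mixtures (3.29 and 47.1) than in any single tissue (278 or more).

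Fewer of the organ-restricted lncRNAs reached 1 RPKM in the pools, and they were lower in their own organs too: the median in the organ was 5.05 RPKM for liver against 25.2 for restricted Ensembl genes, 1.66 against 5.44 for lung and 3.71 against 73.1 for muscle. Of 1079 restricted to testis, 5 reached 1 RPKM in each mixture, and 669 had 0 reads in the tissue mixture. For kidney, 4 of 58 reached 1 RPKM in the tissue mixture, for heart 4 of 21, for liver 4 of 26 and for lung 1 of 25. Of all 10813 lncRNAs listed, 373 reached 1 RPKM in both mixtures, 314 in the tissue mixture alone and 136 in the muscle mixture alone. The kidney share was near that of all lncRNAs listed. Of 18 restricted to muscle, 12 reached 1 RPKM in the muscle mixture and 6 in the tissue mixture, and those 12 were the ones compared, so that their direction followed in part from the limit of 1 RPKM. The medians of these 18 were 47.9% of the adult muscle level in the muscle mixture and 5.1% in the tissue mixture.

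Features with no reads in any of the 9 adult organs were few. They numbered 46 Ensembl genes, of which 40 (87.0%) were higher in the tissue mixture against 2 in the muscle mixture. Over all Ensembl genes compared these shares were 41.4% and 7.14%. Of 12 such lncRNAs, 5 (41.7%) and 3 were, and the first share was near the 36.6% of all lncRNAs compared. The direction of these features followed in part from the limit of 1 RPKM in either mixture. Named after their values were seen, TFF2, a peptide of gastric mucus, had 2.91 RPKM and 0, at least 37.8-fold, and OLIG1, a transcription factor of oligodendrocytes, had 1.18 and 0. ERFE, a hormone that red cell precursors make to mobilise iron, had 1.70 and 0.124, and ICAM4, a red cell adhesion molecule, had 1.64 and 0.031. PRR32, a proline-rich protein, was the only named gene of this kind on the muscle side, with 6.97 in the muscle mixture and 2.03 in the tissue mixture.

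The muscle mixture was also set against the 3 single muscle libraries. Of the 977 Ensembl genes higher in the muscle mixture than in the tissue mixture, 375 (38.4%) were at least 2-fold above all 3 muscle stages in the muscle mixture, against 42.5% of all Ensembl genes compared, 13 were at least 2-fold below all 3, and 255 lay within their range. Of the 137 lncRNAs, 69 (50.4%) were 2-fold above all 3, against 48.1% of all lncRNAs compared, 6 were below and 28 lay within. Neither share set these features apart from the rest. Across the 13674 Ensembl genes, Spearman's rho of the muscle mixture was 0.84 with muscle at day 0, 0.82 at day 30, 0.80 at day 240, 0.72 with heart, 0.71 with adipose tissue and 0.71 with ovary. For the tissue mixture it ranged from 0.41 (testis) to 0.59 (lung). Of genes discussed by name in the study, which compared them between breeds in longissimus dorsi, ANK1, an anchor of the membrane skeleton, had 17.5 RPKM in the tissue mixture against 7.56 in the muscle mixture. Its highest organ at day 240 was nonetheless muscle (29.1), and the muscle mixture lay below the 9.87 to 29.8 of the 3 single muscle libraries. NAAA, a lipid amidase, had 8.06 and 1.05, UCP3, a mitochondrial carrier, had 1.07 and 2.15, and GRB10, an adaptor of the insulin receptor, had 4.66 and 3.32.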

How the data were processed

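Per the labels and the study's methods, the authors depleted ribosomal RNA, mapped reads with TopHat 1.3.2 and built transcript models with Cufflinks. As lncRNAs they kept new models of sufficient length with several exons and no coding potential. They counted reads with htseq-count and deposited RPKM, 1 value a feature and library. The genome build was not given in the sources used here for these libraries, and neither was the way reads of overlapping or duplicated features were counted. RPKM values are shares of a library, so a few abundant genes lower all others.

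From the deposited RPKM, reads were recovered: each library's total is the number that makes reads and lengths whole, and all 29462 features above 0 in any library gave whole reads in every library (tolerance 0.001). The smallest such length was taken, which can be a fraction of the true length, with reads too few by the same factor. Features found in few libraries are the most exposed, and 22695 were above 0 in 4 or more. Lengths, read counts, intervals and floors share this limit, and RPKM values do not. The recovery and the comparison were tested on simulated data. As 1 library stood for each mixture, no count test was run. Features with RPKM of at least 1 in either mixture were compared by log2(RPKM + 0.1), and 2-fold was called. Intervals (95%) and the floor of 3 reads cover counting error only; reads are not independent molecules. Gene symbols came from a table of Ensembl identifiers, with 8805 of the 13674 genes compared (64.4%) named and 310 of 450 list entries matched; other genes are given by identifier or not named.

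The genes named were the 10 named Ensembl genes and 5 lncRNAs with the largest difference each way, up to 4 members of each list by mean RPKM, the 10 features with the most reads in each mixture, and the troponin I and myosin heavy chain families. Named outside this rule, after their values were seen, were list members (CPS1, CYP2E1, DES, TCAP, GRB10, GATA4, KLF1, MSTN, MYL3, MYOD1, ND6, PLIN1, PRM1, PVALB, SCGB1A1, TFF2 and UCP3), genes of no list (ANK1, NAAA, HBM, TNMD, OLIG1, ERFE, ICAM4, PRR32, C3, F10, SERPINC1, CLDN4, KRT8 and COL4A3), the features at the RPKM limit and the lncRNAs marked so. The members and lists were chosen with earlier results of these data known. Alternatives were other pseudocounts, RPKM limits, folds, scalings, a margin for the highest organ and equal numbers of reads; the near bound of the interval and the removal of features under 200 nt were added after the data were seen. Python 3.11.15, pandas 2.3.3 and scipy 1.17.1 were used. Results for a few list members are not reported here.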

Additional observations from a re-analysis of the deposited data

How the results depend on the processing

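The limits are those of 1 library a mixture: no spread between replicates is known, pool contents were not given, and the scale between the mixtures was not fixed by any standard. No paired analysis was possible because each group held 1 library without a replicate number, and there was no replicate to leave out.

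The counts of Ensembl genes higher in the tissue (5660) and muscle mixture (977) changed by more than 1.5 times with RPKM of at least 5 (2292 for tissue), with 4-fold (2723 and 160) and with the same median ratio (2982 and 2721). For lncRNAs (301 and 137) they were 169 and 69 with a pseudocount of 1, 1497 and 564 with RPKM of at least 0.1, 47 and 33 with at least 5, 144 and 49 with 4-fold, and 121 and 239 with the same median ratio. Genes higher in the tissue mixture and highest in testis (1132 Ensembl genes, 43 lncRNAs) numbered 717 and 20 with a pseudocount of 1, 1752 and 290 with RPKM of at least 0.1, 416 and 5 with at least 5, 394 and 15 with 4-fold, 515 and 14 with the same total, 327 and 13 with the same median ratio, and 521 and 20 with a 2-fold margin over the next organ. Ensembl genes higher in the muscle mixture and highest in muscle (213) numbered 60 with 4-fold, 1108 with the same median ratio and 125 with the margin. A limit, fold or margin changes these counts by its construction, and the same median ratio brings the median difference near 0 by its construction. For these counts each library was scaled, so the features compared and their highest organ changed too. Genes compared and highest in testis, for example, numbered 3334 as deposited and 2003 with the same total. Any other cause of the changes with the scale was not tested. A pseudocount of 0.01, equal numbers of reads (5670 and 989 Ensembl genes), the near bound of the interval and the removal of features under 200 nt changed none of the counts they were run on by more than 1.5 times. Of 126 named features, none past 2-fold changed direction with either pseudocount or scaling. That outcome was fixed in advance and is no check of these features. A pseudocount keeps the order of the compared values, and the scalings of the tissue mixture lowered differences by at most 0.13 and 0.67.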
